A study of Sus scrofa with 26 samples.

Results

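The genes described are 10 inflammatory cytokines and chemokines (TNF, IL6, IL1B, IL18, IL15, CCL2, CCL5, CXCL2, CXCL10 and CXCL12), taken by name from 10155 genes that were named and measured on the array. They were chosen with earlier results of these data known. Cytokines and chemokines are small secreted proteins through which cells of a tissue signal to one another and call in leukocytes. In adipose tissue they are made by adipocytes, by the stromal cells around them and by resident macrophages and lymphocytes, and low levels of them are usual in the tissue of healthy animals. TNF and IL6 are cytokines of the acute inflammatory response, IL1B and IL18 are released after cleavage by the inflammasome, and IL15 sustains natural killer cells and memory T cells. Of the 5 chemokines, CCL2 attracts monocytes, CCL5 attracts T cells and is itself made by activated T cells, CXCL2 attracts neutrophils, CXCL10 is induced by interferon and attracts activated T cells, and CXCL12 is made by stromal cells and retains leukocytes through the receptor CXCR4.

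The 10 genes were followed in the subcutaneous adipose tissue (backfat) of 26 castrated male growing pigs, with 1 pig per one-colour microarray. The pigs were Creole, a local breed of the Caribbean, Large White (LW), a breed selected for lean growth, and their cross (F1). Thermoneutral pigs (TN, 24 °C) were slaughtered before the rise in temperature, and heat-stressed pigs (HS) after it. The HS temperature is 30 °C in the labels of the samples and 32 °C, held for 5 days, in the description of the series, and no calculation used either value. There were 3 Creole, 4 F1 and 4 LW pigs in TN and 5 pigs of each breed in HS. Temperature, day of slaughter and age at slaughter cannot be told apart in this design. The pigs of a breed came from blocks of littermates housed in shared pens, and the labels give neither litter, pen nor age. The p-values below therefore measure the spread between pigs with these links ignored.

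The array held 34 probes for the 10 genes among 60305 probes, and 30 of the 34 were well above background on at least 8 arrays, as were 44703 probes in all. The 30 retained probes were well above background on every one of the 26 arrays, so all 10 genes were measured, with 2 to 4 probes each. The 4 probes left out were 3 of IL1B, well above background on 0, 0 and 4 arrays, and 1 of TNF, well above background on 3 arrays. Each gene is represented below by its brightest probe, and the other probes are given beside it. Levels are log2 of the quantile-normalized median pixel intensity. Between 41314 and 46185 spots per array were well above background and none was saturated. All 8 adipocyte markers checked, among them ADIPOQ, PLIN1 and FABP4, were well above background on all 26 arrays. Markers of macrophages (10 of 12 listed), T cells (8 of 10), fibroblasts (11 of 11) and skeletal muscle (8 of 8) were also measured. A lower level in whole tissue can come from fewer cells of a type or from less RNA per cell, and these cannot be told apart here.

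The identity of a probe bears on what can be read from it, and 3 probe sequences are given. Breed differences described below rest on O14994 and A_72_P115401, and A_72_P035856 is the probe that O14994 is compared with. The first pair belongs to IL15, and the capitals mark the 29 bases that both probes share, so that they bind overlapping stretches of the same transcript.
IL15 probe O14994: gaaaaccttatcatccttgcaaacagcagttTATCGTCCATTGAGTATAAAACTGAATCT
IL15 probe A_72_P035856: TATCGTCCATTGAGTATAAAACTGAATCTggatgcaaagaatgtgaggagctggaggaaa
The third is the CCL5 probe with the largest difference between the parental breeds, shown with no part marked.
CCL5 probe A_72_P115401: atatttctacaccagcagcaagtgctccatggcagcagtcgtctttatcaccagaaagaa

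Other probes agreed to different degrees over the 26 arrays. The 2 probes of CXCL10 followed each other closely (Pearson's r = 0.985), as did the 2 brighter probes of CXCL2 (r = 0.991), the 3 probes of CCL2 (r from 0.949 to 0.974) and the 3 of IL18 (r from 0.897 to 0.918). Of the CCL2 probes, A_72_P675364 and A_72_P412643 are the same 60 bases, and their levels differed by 0.11 ± 0.079 (SD, n = 26) on the log2 scale. The 3 retained TNF probes share 54 to 58 bases, yet correlated at only 0.386 to 0.494. The 4 CXCL12 probes ranged from 0.239 to 0.808. The 2 retained IL1B probes did not follow each other (r = -0.285), and the brighter one, A_72_P463511, is assigned by its accessions both to IL1B and to IL1B2, the second copy of this gene in the pig. Its signal therefore cannot be attributed to 1 of the 2 genes. All these correlations are descriptions across arrays and carry no test.

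**Figure D1:**
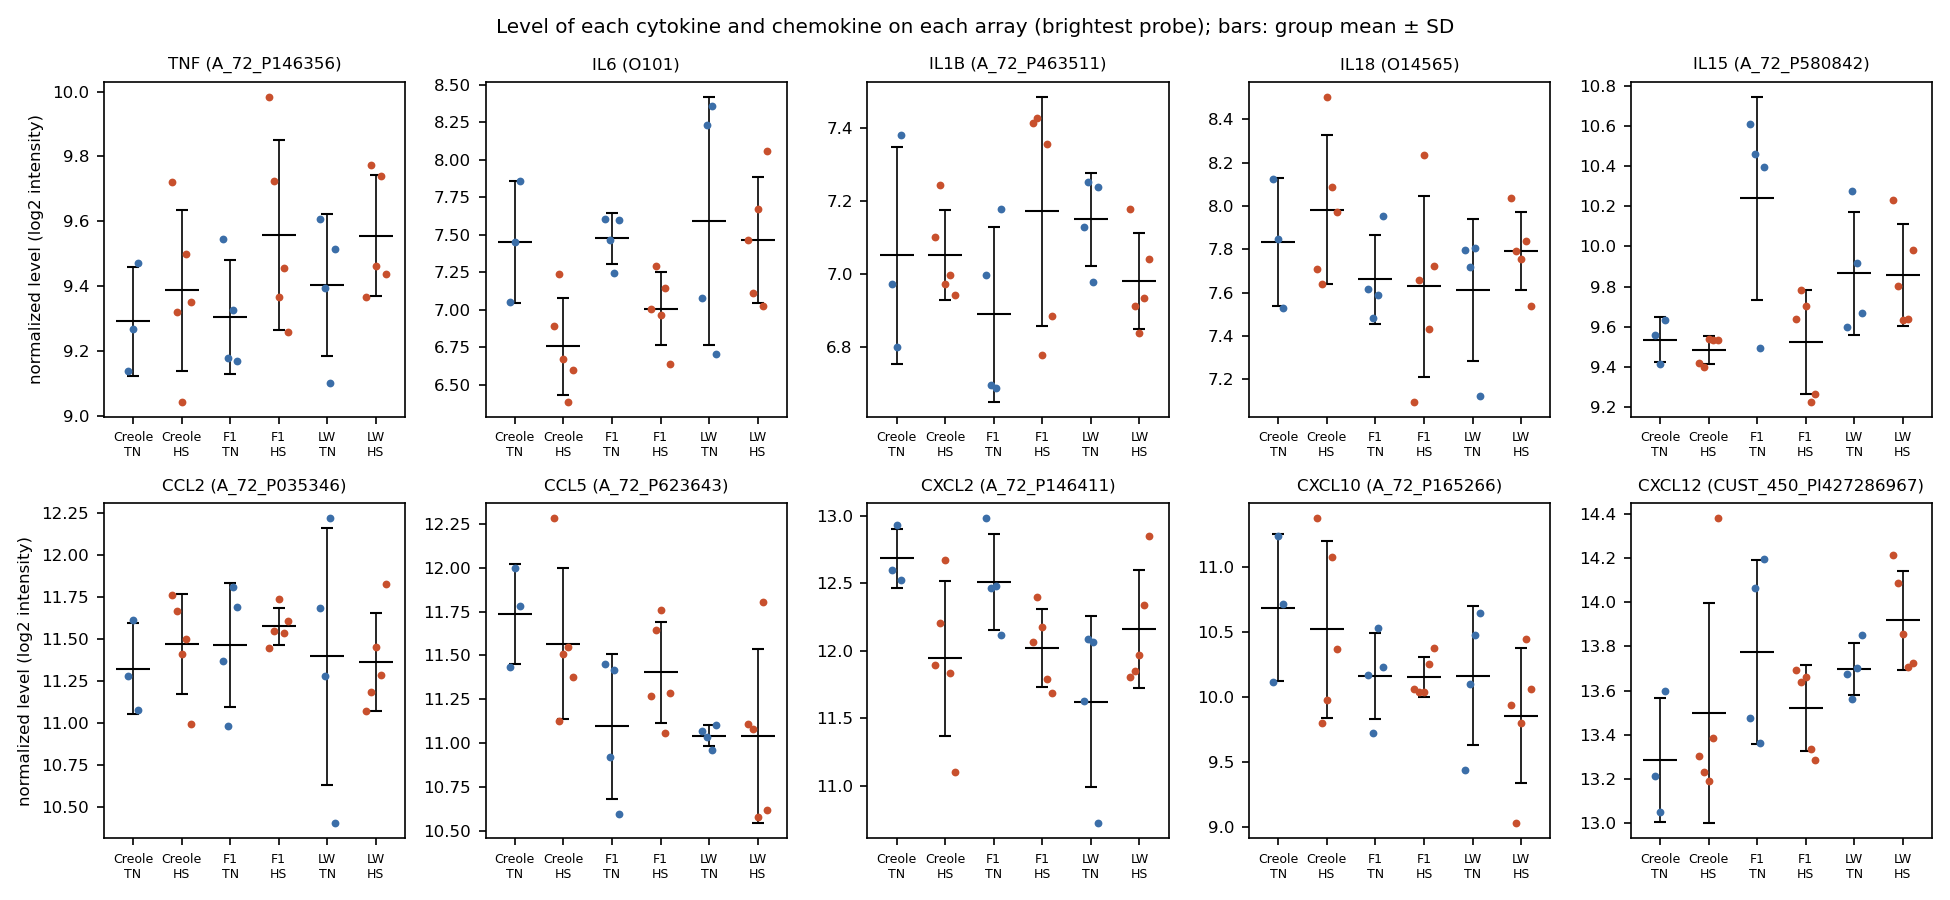
Normalized level (log2 intensity) of each of the 10 genes by its brightest probe, with 1 point per array, blue for TN and red for HS, and bars for the group mean ± SD. The groups overlapped for most genes. CCL5 and CXCL10 were highest in Creole pigs, IL15 was high in 3 of the 4 F1 TN pigs, and the mean of CXCL2 was lower in HS than in TN in Creole and F1 and higher in LW.

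The spread of a gene over the 26 arrays went from 0.22 log2 units (SD) for IL1B to 0.52 for CXCL2 and CXCL10. Between the highest and the lowest of the 6 group means, the distance was 0.25 for CCL2, 0.27 for TNF, 0.28 for IL1B and 0.37 for IL18. It was 0.63 for CXCL12, 0.70 for CCL5, 0.76 for IL15, 0.83 for CXCL10, 0.84 for IL6 and 1.06 for CXCL2. CCL5 and CXCL10 had their highest means in Creole TN and Creole HS and their lowest in LW HS. IL15 and IL6 had their lowest mean in Creole HS, and CXCL12 its lowest in Creole TN. Of the 5 pairs of neighbours in the order of the 6 group means, none passed an adjusted p of 0.05 for any of the 10 genes (limma, Benjamini-Hochberg over all tested probes). The lowest adjusted p between neighbours was 0.291, for IL15. Of all 15 pairs of groups, only Creole HS against F1 TN passed, and only for IL15, with a difference of -0.76 and an adjusted p of 0.0448, in a pair in which 0.975% of the named genes passed. The other probes added pairs that passed for IL15, CCL5 and IL6, and all of them set a Creole group against LW or F1. CCL5 probe A_72_P115401 had a difference of -0.79 between LW HS and Creole TN, a pair in which 15.7% of all probes passed, and of 0.78 between Creole HS and LW TN, where 2.48% passed. IL15 probe O14994 was lower in Creole HS than in F1 TN (-1.09, 0.995% of all probes passed) and LW TN (-1.02), and higher in LW HS than in Creole HS (0.82, 5.66% passed).

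The first question was whether the heat exposure changed the inflammatory signals of the tissue. IL6 was the one gene of the 10 with a probe that fell past the threshold in HS, and this was the dimmest of its 4 probes. The other 9 genes showed no change past the threshold. By the brightest probe, 0 of the 10 genes passed an adjusted p of 0.05, against 12.5% of the 10155 named genes of the array, and 2 of the 10 had an unadjusted p under 0.05, against 28.1% of the named genes. With every retained probe counted, 1 of 30 passed, against 12.2% of all 44703 probes. Counted by any probe, 1 of the 10 genes passed, against 21.2% of the named genes with 2 to 4 probes. The median change of the 10 genes was 0.05 on the log2 scale, and that of all named genes was -0.0047. Sizes were similar too, with a median absolute change of 0.13 for the 10 genes and 0.09 for all named genes.

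IL6 is made by adipocytes, stromal cells and macrophages. On the probe that passed, A_72_P680394, the TN levels were 6.17, 6.39 and 6.71 in Creole, 6.77, 6.56, 6.38 and 6.57 in F1 and 6.22, 7.20, 7.29 and 6.66 in LW. In HS they were 5.997, 6.22, 5.94, 6.09 and 5.61 in Creole, 6.04, 6.13, 6.08, 6.13 and 5.93 in F1 and 6.37, 6.22, 6.67, 6.08 and 6.74 in LW. All 15 HS pigs were below the TN mean of their own breed, and the F1 groups did not overlap, while those of Creole and LW did. The change was -0.46 ± 0.10 (SE), a level 1.38-fold lower, with an adjusted p of 0.00413 (limma, n = 11 TN and 15 HS). From the processed intensity scaled to the 75th percentile it was -0.76 (adjusted p = 0.00762). The probe with the highest mean level, O101, changed by -0.42 ± 0.16 (adjusted p = 0.0954), with 13 of the 15 HS pigs below the TN mean of their breed. The remaining probes gave -0.38 (adjusted p = 0.160) and -0.18 (adjusted p = 0.456), so the 4 probes had the same sign and 3 did not pass. With the slide as a block the change was -0.48 on A_72_P680394 (adjusted p = 0.00302) and -0.45 on O101 (adjusted p = 0.0714). Within the 5 slides A_72_P680394 was lower in HS on all 5, with differences from -1.21 to -0.05, though the breeds on a slide were not balanced.

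Marker levels moved with temperature too. The red blood cell score is the mean deviation of 5 measured markers from their own means. It was 0.19 ± 0.16 (SD, range -0.02 to 0.46) in TN and -0.14 ± 0.24 (range -0.55 to 0.32) in HS. Of its 5 markers, 3 had a negative change and 2 a positive one, and only HBB, which fell, passed the threshold. With this score in the model the change of IL6 probe A_72_P680394 was -0.44 and its adjusted p 0.102. In that model 0.834% of all probes passed. Of the 11 fibroblast and matrix markers, 5 rose in HS, where 4.88% of all named genes rose and 7.65% fell. All 11 had a positive change, and their score went from -0.18 ± 0.33 (range -1.04 to 0.18) in TN to 0.13 ± 0.25 (range -0.24 to 0.58) in HS. Of the 10 macrophage markers none passed, and the score was -0.08 ± 0.27 in TN and 0.06 ± 0.24 in HS. Positive changes were seen in 10 of 10 macrophage markers within Creole (median 0.58) and 9 of 10 within LW (median 0.18). Within F1, 8 of 10 were negative (median -0.19). None passed within a breed (limma) or for the interaction of breed and temperature (F test, lowest adjusted p = 0.897). Over all 10155 named genes, 4895 were positive within Creole and 5199 within LW, and 5358 were negative within F1. The markers were measured on the same pigs, so they are not replicates. The part of all these markers in the changes of the cytokines was not tested beyond the red blood cell score.

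IL15 had the same direction on its 3 probes, but none of them passed. The changes were -0.27 ± 0.12 (SE, adjusted p = 0.154), -0.31 (adjusted p = 0.164) and -0.30 (adjusted p = 0.0769). For TNF the probes gave 0.17 ± 0.085 (adjusted p = 0.199), 0.16 and 0.10, and 12 of the 15 HS pigs lay above the TN mean of their breed on the brightest probe. IL18, an inflammasome product, gave 0.10 to 0.16 on its 3 probes (lowest adjusted p = 0.316). IL1B cannot be given a direction, since probe A_72_P463511, shared with IL1B2, changed by 0.04 and probe A_72_P441479 by -0.35 (adjusted p = 0.0819).

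None of the 5 chemokines passed for temperature over the 3 breeds. CCL2 differed by 0.01 to 0.07 on its 3 probes, with a standard error of 0.14 on the brightest. CCL5 differed by 0.06 on the brightest probe and by 0.07 and -0.14 on the others. CXCL10 gave -0.16 and -0.19. CXCL2 gave -0.20, -0.29 and -0.21, and CXCL12 had probes on both sides of 0, from -0.27 to 0.10. The largest of these, CXCL12 probe A_72_P713558, had an adjusted p of 0.132. With standard errors from 0.085 (TNF) to 0.20 (CXCL2) on the brightest probes, small changes were not detectable with this number of pigs.

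**Figure D2:**
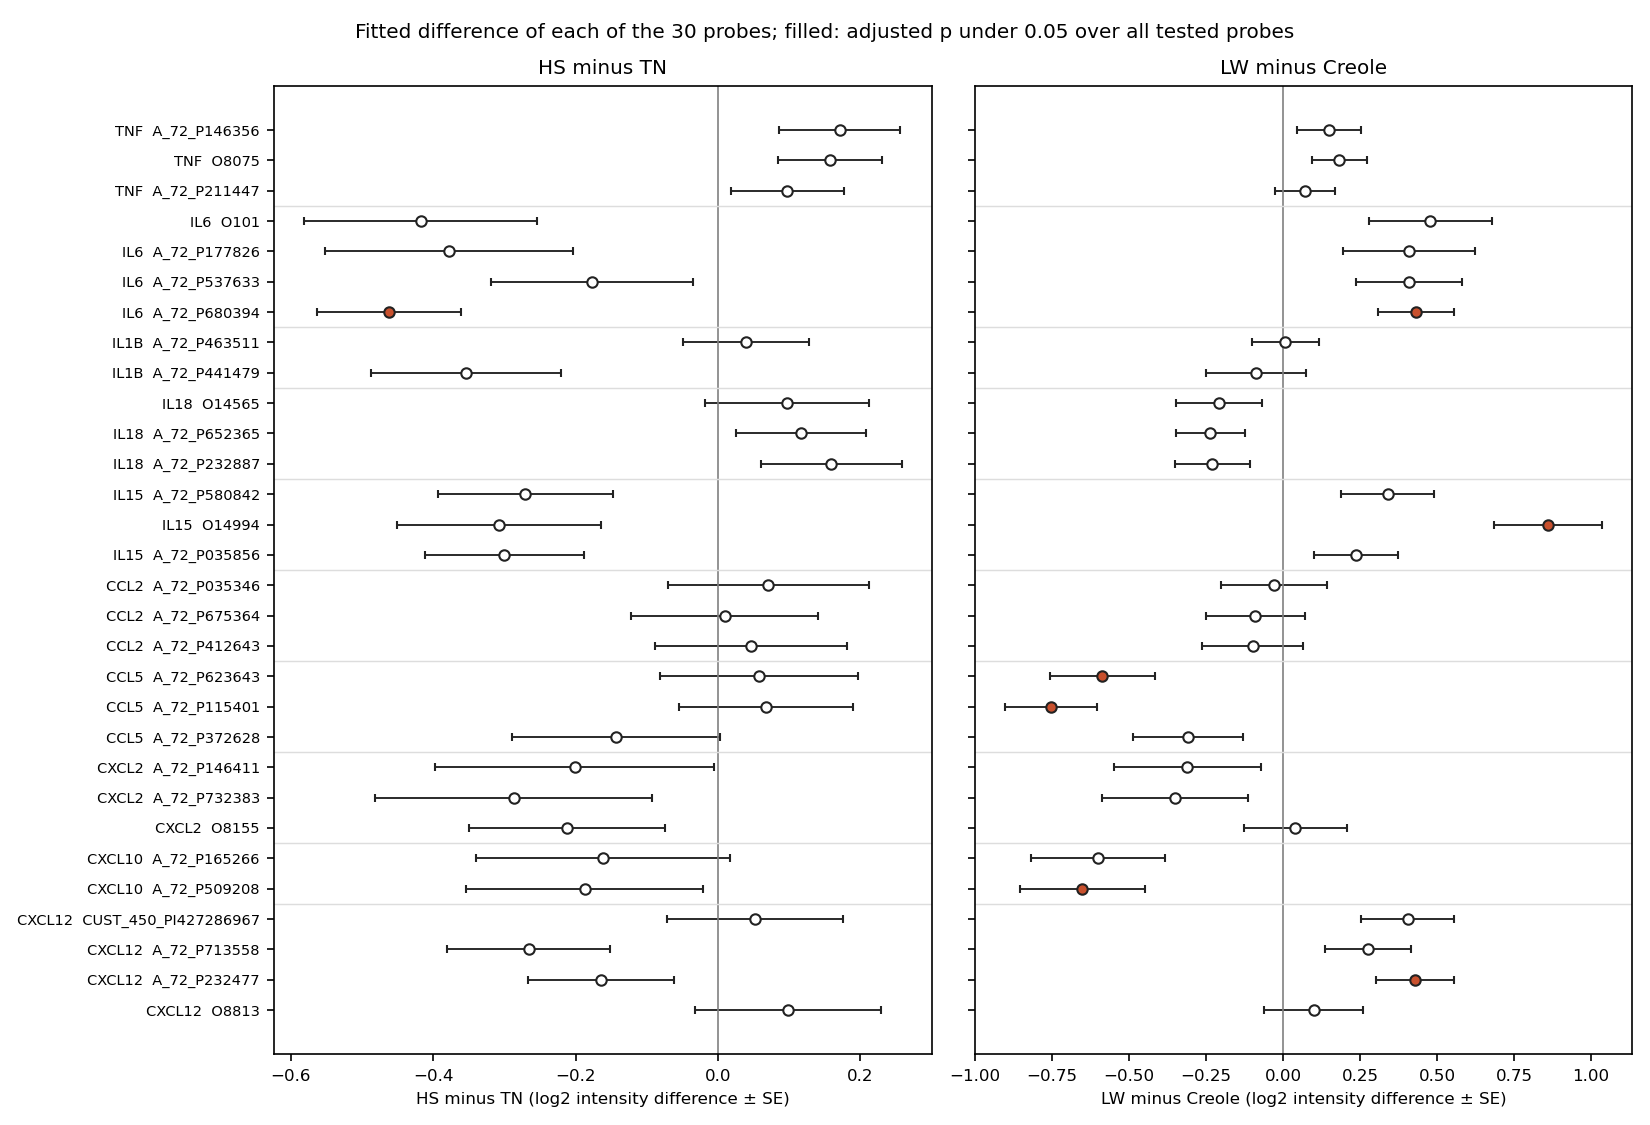
Fitted log2 difference ± SE of each of the 30 retained probes, grouped by gene, for HS minus TN (left) and LW minus Creole (right), with filled points for an adjusted p under 0.05. On the left 1 probe of IL6 was past the threshold, and on the right 6 probes of CCL5, CXCL10, CXCL12, IL15 and IL6 were.

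The second question was how the parental breeds differed at both temperatures. CCL5, a chemokine of T cell recruitment, was lower in LW than in Creole pigs on every probe, and its brightest probe and another passed. CXCL10, a chemokine of the same kind, was lower in LW on both probes, and 1 of them, not its brightest, passed. CXCL12, IL15 and IL6 were higher in LW on every probe, and each had 1 probe, not its brightest, that passed. By the brightest probe, 1 of the 10 genes passed, against 15.3% of all named genes, and 5 of the 10 had an unadjusted p under 0.05, against 30.5%. With every probe counted, 6 of 30 passed, against 14.3% of all probes. Of these, 3 were higher in LW, against 6.89% of all probes, and 3 lower, against 7.43%. Counted by any probe, 5 of the 10 genes passed, against 25.8% of named genes with 2 to 4 probes. The probes other than the brightest are named here because they passed, that is, after their values were seen. Among the 10 genes the median absolute difference was 0.33 on the log2 scale, with a median standard error of 0.16. Over all named genes the median absolute difference was 0.12.

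CCL5 was lower in LW on its 3 probes and passed on 2 of them. On the brightest, A_72_P623643, the Creole levels were 11.43, 11.995 and 11.78 in TN and 12.28, 11.12, 11.51, 11.55 and 11.38 in HS. The LW levels were 11.07, 11.03, 10.96 and 11.101 in TN and 11.11, 11.08, 10.58, 11.81 and 10.62 in HS. Of the 9 LW pigs, 8 were below all 8 Creole pigs, and 1 LW HS pig, replicate 4, lay among them. The difference was -0.59 ± 0.17 (SE), a level 1.5-fold lower in LW, with an adjusted p of 0.0221. Probe A_72_P115401, whose sequence stands above, gave -0.75 ± 0.15, 1.69-fold lower (adjusted p = 0.00212), and the remaining probe, A_72_P372628, -0.31 (adjusted p = 0.263). Mean levels of F1 pigs on the brightest probe, 11.27 ± 0.36 (SD, n = 9), lay between those of Creole (11.63 ± 0.37, n = 8) and LW (11.04 ± 0.35, n = 9). CCL5 was lower in LW on all 4 slides that held both breeds, with differences from -0.84 to -0.18 on the brightest probe. Without Creole HS replicate 1 the difference was -0.50 (adjusted p = 0.0527), and without Creole TN replicate 2 it was -0.52 (adjusted p = 0.0528), whereas A_72_P115401 passed whichever array was left out.

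CXCL10 had the same sign on both probes. On A_72_P509208 the Creole levels were 9.22, 10.37 and 9.88 in TN and 10.46, 9.05, 9.24, 10.31 and 9.48 in HS, and the LW levels were 8.61, 9.26, 9.52 and 9.84 in TN and 9.14, 8.22, 8.94, 9.41 and 9.06 in HS. Creole pigs spread widely, 3 of the 9 LW pigs were below all of them, and 8 of 9 were below the Creole mean. The difference was -0.65 ± 0.20 (SE), 1.57-fold lower in LW (adjusted p = 0.0319). The brighter probe gave -0.60 ± 0.22 with an adjusted p of 0.0641, and 0.0344 with the slide as a block. The call on A_72_P509208 was lost when any of 6 arrays was left out, namely Creole TN replicate 2, Creole HS replicates 1 and 4, LW TN replicate 1 and LW HS replicates 2 and 3, with the smallest difference at -0.54 and adjusted p-values from 0.0514 to 0.0754. Within slides, CXCL10 was lower in LW on 3 of 4.

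CXCL12, the chemokine of stromal cells, went the other way. On probe A_72_P232477 the Creole levels were 11.18, 10.99 and 11.37 in TN and 10.92, 10.64, 10.99, 10.71 and 11.57 in HS, and the LW levels were 11.19, 11.40, 11.77 and 11.70 in TN and 11.59, 11.83, 11.09, 11.18 and 11.61 in HS. All 9 LW pigs exceeded the Creole mean and 5 of them exceeded every Creole pig. The difference was 0.43 ± 0.13 (SE), 1.35-fold higher in LW (adjusted p = 0.0235). Its call was lost without Creole HS replicate 2 (adjusted p = 0.0509), Creole HS replicate 4 (0.0501) or LW HS replicate 2 (0.0533), with differences from 0.37 to 0.39. Within the 4 slides that held both breeds it was higher in LW on all 4. On the brightest probe the difference was 0.40 ± 0.15 (adjusted p = 0.0741). With 1 array left out it went from 0.35 to 0.54. It passed in 1 of these 26 fits, without the highest Creole pig, HS replicate 5 (0.54, adjusted p = 0.00366). Within slides the brightest probe was higher in LW on 3 of 4, with differences from -0.60 to 0.93. The other 2 probes gave 0.28 (higher in LW on 3 of 4 slides) and 0.10 (on 2 of 4).

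IL15 showed a breed difference whose size depended on the probe. On O14994 the Creole levels were 8.95, 8.39 and 8.502 in TN and 8.26, 8.25, 8.90, 8.58 and 8.72 in HS, and the LW levels were 9.22, 9.80, 9.73 and 9.49 in TN and 9.76, 9.27, 9.06, 9.16 and 9.56 in HS. Every LW pig was above every Creole pig. The difference was 0.86 ± 0.17 (SE), 1.82-fold higher in LW (adjusted p = 0.00252), it held whichever array was left out, and it was 0.76 to 1.02 within the 4 slides that held both breeds. Probe A_72_P035856, which shares 29 of its 60 bases with O14994, gave 0.24 ± 0.14 (adjusted p = 0.257), and the brightest probe, A_72_P580842, 0.34 ± 0.15 (adjusted p = 0.131, and 0.0316 with the slide as a block). The gap between O14994 and A_72_P035856 on the same array was 0.03 ± 0.24 (SD, range -0.20 to 0.45) in the 8 Creole pigs, 0.57 ± 0.20 (range 0.31 to 0.80) in the 9 F1 pigs and 0.65 ± 0.066 (range 0.56 to 0.77) in the 9 LW pigs. The ranges of Creole and LW did not overlap. Its size in 1 pig says nothing of the transcript, since each probe has its own brightness, and only its difference between breeds is given here. The gap was looked at after the probe values were seen and carries no test.

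**Figure D3:**
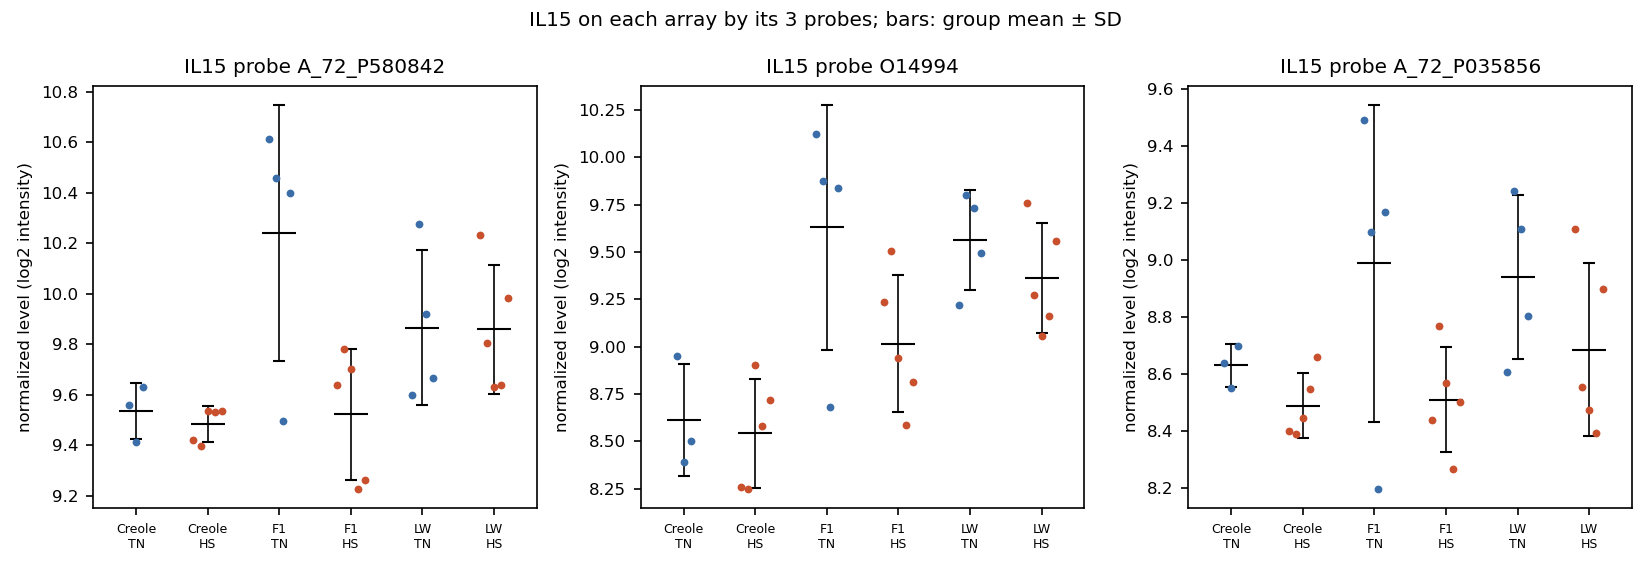
Normalized level (log2 intensity) of IL15 by its 3 probes, with 1 point per array, blue for TN and red for HS, and bars for the group mean ± SD. On O14994 all LW pigs lay above all Creole pigs, whereas the breeds overlapped on A_72_P035856. On all 3 probes 3 of the 4 F1 TN pigs stood above the F1 HS pigs.

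IL6 had positive differences on its 4 probes, from 0.41 to 0.48, and 1 of them passed. On A_72_P680394, whose levels are given above, the difference was 0.43 ± 0.12 (SE), 1.35-fold (adjusted p = 0.0211). It was 0.85 (adjusted p = 0.0129) from the processed intensity scaled to the 75th percentile, and 0.46 (adjusted p = 0.0714) in a model without temperature. On this probe 8 of the 9 LW pigs exceeded the Creole mean, and it was higher in LW on 3 of the 4 slides. The brightest probe gave 0.48 ± 0.20 (adjusted p = 0.110), and it passed in 0 of 12 alternative settings. With 1 array left out it went from 0.38 to 0.61. It passed in 1 of these 26 fits, without LW TN replicate 4 (0.61, adjusted p = 0.0239). IL18 gave -0.24 to -0.21 on its 3 probes and TNF 0.07 to 0.18, with none past the threshold. CXCL2 gave -0.31 and -0.35 on its brighter probes and 0.04 on the remaining one. For CCL2 the difference was -0.03 ± 0.17 (SE), and for IL1B 0.0068 ± 0.11 on the probe shared with IL1B2, so these were the members least separated by breed. Of the T cell markers none of 8 passed, and their score was 0.08 ± 0.19 (SD, range -0.22 to 0.36) in Creole and -0.05 ± 0.23 (range -0.38 to 0.28) in LW. Of the fibroblast and matrix markers 4 of 11 were higher in LW, where 6.67% of all named genes were higher and 8.61% lower. All 11 had a positive difference, with scores of -0.14 ± 0.40 (range -1.04 to 0.26) in Creole and 0.18 ± 0.29 (range -0.17 to 0.58) in LW. The adipocyte score was 0.15 ± 0.16 (range 0.01 to 0.48) in Creole and -0.10 ± 0.078 (range -0.21 to 0.02) in LW, with 1 of 8 markers, LEP, lower in LW. Their part in the breed differences was not tested.

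Across the 3 breeds together, 0 of the 10 genes passed the F test by the brightest probe (11.7% of named genes did), with 3 genes at an unadjusted p under 0.05, against 27.7% of named genes, and CCL5 nearest at an adjusted p of 0.0576. Over all probes 3 of 30 passed, 1 probe of each of 3 genes, against 11.3% of all probes. F1 pigs were also set against the mean of LW and Creole, that is, against the level expected if the cross were halfway between its parents. None of the 10 genes passed (limma, lowest adjusted p = 0.707, for IL18), none had an unadjusted p under 0.05, and 0% of the named genes passed, with 8.49% at an unadjusted p under 0.05. The differences ranged from -0.17 ± 0.12 (SE) for IL18 to 0.16 ± 0.20 for CXCL2.

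The third question was whether the breeds responded differently to heat. CXCL2, which recruits neutrophils, and IL15 had the most unequal changes on the brightest probes, but neither passed. Within Creole, F1 and LW pigs, 0 of the 10 genes passed in each (limma), against 0.0788%, 0.394% and 1.42% of named genes, and 2, 1 and 0 had an unadjusted p under 0.05, against 11.1%, 15.7% and 18%. The F test of the interaction called 0 of the 10 genes and 0% of the named genes, with 2 members at an unadjusted p under 0.05, against 5.5% of the named genes.

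For CXCL2 the TN levels were 12.60, 12.93 and 12.52 in Creole, 12.98, 12.46, 12.48 and 12.11 in F1 and 11.63, 12.09, 12.06 and 10.73 in LW. The HS levels were 11.90, 12.21, 12.68, 11.84 and 11.11 in Creole, 12.07, 12.40, 12.18, 11.79 and 11.69 in F1 and 11.81, 11.85, 11.97, 12.34 and 12.85 in LW. All 5 HS pigs lay below the TN mean of their breed in Creole and in F1, and all 5 above it in LW, although the ranges of TN and HS overlapped in each breed. The changes were -0.74 ± 0.31 (SE), -0.49 ± 0.28 and 0.54 ± 0.28, and the interaction had an unadjusted p of 0.0116 and an adjusted p of 0.897. The LW change rested on LW TN replicate 4, the lowest of all 26 pigs for CXCL2: as a difference of means it was 0.24 without this pig, with 3 of 5 HS pigs above the TN mean and 2 below. In Creole 1 of 5 HS pigs lay above the TN mean without TN replicate 2 (-0.61), and in F1 1 of 5 did without TN replicate 1 (-0.33). CXCL2 probes A_72_P732383 and O8155 were lower in HS in Creole (1.78-fold and 1.19-fold) and F1 (1.45-fold and 1.37-fold). They were higher in HS in LW (1.34-fold and 1.04-fold). Other markers moved within breeds too. All 8 skeletal muscle markers had a positive change within LW, as did 5199 of all 10155 named genes. The median of these markers was 1.76, with none past the threshold and 4 at an unadjusted p under 0.05. LW TN replicate 4 had the lowest muscle score of the 26 pigs, -2.09. CXCL2 and the muscle score had r = 0.480 over all pigs (permutation, adjusted p = 0.133), 0.789 within TN and 0.329 within HS. All 10 macrophage markers had a positive change within Creole, as did 4895 of all 10155 named genes. The median of these markers was 0.58, with none past the threshold and 6 at an unadjusted p under 0.05. Their part in the changes of CXCL2 was not tested. IL15 changed on its brightest probe by -0.72 ± 0.18 in F1, but by -0.05 ± 0.20 in Creole and -0.0070 ± 0.18 in LW pigs. The breeds were less unequal on IL15 probes O14994 and A_72_P035856. These were lower in HS in F1 (1.53-fold and 1.39-fold), Creole (1.05-fold and 1.1-fold) and LW (1.15-fold and 1.19-fold). On the brightest IL15 probe the F1 TN levels were 10.61, 10.46, 9.49 and 10.40 and the F1 HS levels 9.64, 9.78, 9.70, 9.23 and 9.26, so 3 of 4 TN pigs were above all HS pigs and replicate 3 was not. The F1 change had an adjusted p of 0.0719 and passed without that pig, when the difference of means was -0.97, and the interaction an unadjusted p of 0.0195 and an adjusted p of 0.897.

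IL6 on its brightest probe had a change of -0.70 ± 0.30 in Creole pigs, of -0.47 ± 0.28 in F1 pigs and of -0.13 ± 0.28 in LW pigs (interaction adjusted p = 0.906). On that probe all 5 HS pigs were below the TN mean in Creole and in F1, and 3 of 5 in LW. On A_72_P680394, which passed over the 3 breeds, the changes were close to each other, -0.45 ± 0.19 in Creole, -0.51 ± 0.18 in F1 and -0.43 ± 0.18 in LW, none of them past the threshold within a breed (lowest adjusted p = 0.160). On the brightest probe, O101, the 4 LW TN pigs were split, at 8.23 and 8.36 for replicates 2 and 3 and at 7.08 and 6.70 for the others. The change of O101 over all breeds passed in 3 of the 26 fits with 1 array left out, each without 1 LW pig (limma). It was -0.49 (adjusted p = 0.0489) without LW TN replicate 1, -0.53 (adjusted p = 0.0179) without LW TN replicate 4 and -0.48 (adjusted p = 0.0464) without LW HS replicate 5. Probe A_72_P680394 passed over all breeds whichever array was left out. For CCL2, CCL5, CXCL10, CXCL12, TNF, IL18 and IL1B the changes within breeds were from -0.31 to 0.31 log2 units on the brightest probes, with standard errors from 0.14 to 0.34. Over all their probes they reached from -0.56 to 0.39, with the largest for CCL5 probe A_72_P372628 (-0.56 ± 0.25 in Creole, adjusted p = 0.391), IL1B probe A_72_P441479 (-0.50 in Creole and -0.49 in F1) and CXCL12 probe A_72_P713558 (-0.47 in Creole).

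The genes through which these cytokines act were described by lists, of which few members passed. Among their receptors 0 of 14 measured passed for temperature, and for breed 1 of 14 did, ACKR1, a vascular receptor that binds many chemokines without signalling, which was higher in LW by 0.69 ± 0.13 (SE, adjusted p = 0.00133). Of 9 inhibitors, 1 fell in HS, NFKBIB (-0.25 ± 0.060, adjusted p = 0.00823), and 1 was higher in LW, NFKBIA (0.44 ± 0.092, adjusted p = 0.00332), both of which hold NF-κB in the cytoplasm. Of 26 genes of sensing, inflammasome and NF-κB signalling, RELA, an NF-κB subunit, rose in HS (0.18 ± 0.047, adjusted p = 0.0151), CHUK, a kinase that releases NF-κB, fell (-0.31 ± 0.068, adjusted p = 0.00413), and TRAF6, an adaptor of the IL-1 receptor, was lower in LW (-0.44 ± 0.13, adjusted p = 0.0222). As stated above, 12.5% of all named genes passed for temperature and 15.3% for breed.

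Other ligands were listed beside the members. Of 18 other interleukins and TNF family ligands, 3 rose in HS and none fell, where 4.88% of all named genes rose and 7.65% fell. A positive change was seen in 16 of the 18, with a median of 0.09, and in 4942 of all 10155 named genes, with a median of -0.0047. The 3 were IL34, a ligand of the macrophage receptor CSF1R (0.47 ± 0.088, adjusted p = 0.00130), TNFSF10, which triggers cell death receptors (0.37 ± 0.11, adjusted p = 0.0238), and IL16, which attracts CD4 T cells (0.23 ± 0.075, adjusted p = 0.0460). IL16 was also higher in LW than in Creole (0.41 ± 0.092, adjusted p = 0.00501). Of 20 other chemokines, CXCL14, abundant in fat and skin, rose in HS (0.62 ± 0.19, adjusted p = 0.0354) and CCL4, a chemokine of activated leukocytes, fell (-0.63 ± 0.20, adjusted p = 0.0399). The keratinocyte score rested on 2 of 6 listed markers, and neither passed for temperature. It was -0.65 ± 1.55 (SD, range -2.17 to 3.15) in TN and 0.48 ± 2.24 (range -2.56 to 4.47) in HS. Whether this score had a part in the change of CXCL14 was not tested. CXCL13, which attracts B cells, was higher in LW by 1.44 ± 0.27 (adjusted p = 0.00142), as was CXCL16 by 0.48 ± 0.16 (adjusted p = 0.0451). Of 17 genes of leukocyte recruitment or known as NF-κB targets, C3, the central complement protein, rose in HS (0.47 ± 0.11, adjusted p = 0.00661) and SELE, the endothelial selectin, fell (-0.38 ± 0.11, adjusted p = 0.0223). SOD2, a mitochondrial antioxidant enzyme, was higher in LW (0.54 ± 0.12, adjusted p = 0.00488), as was C3 (0.41 ± 0.13, adjusted p = 0.0402). None of the listed genes passed for F1 against the mean of its parents.

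The members did not rise and fall as 1 block over the 26 pigs. Of the 45 pairs of members, 0 had an adjusted p under 0.05 for Pearson's r (two-sided permutation test, 100000 permutations, adjusted over the 45 pairs), and the median r was -0.03. The closest pair was CCL5 and CXCL10, with r = 0.591 (permutation p = 0.00132, adjusted p = 0.0594) and Spearman's rho = 0.483 (permutation p = 0.0134, adjusted p = 0.151). It was 0.613 within TN and 0.611 within HS, 0.860 within Creole, 0.0602 within F1 and 0.235 within LW, and r fell to 0.363 without the 2 pigs farthest from the median of CCL5. IL6 and IL15 followed with r = 0.553 (permutation p = 0.00321, adjusted p = 0.0722) and rho = 0.553 (adjusted p = 0.0884), and r was 0.514 without the 2 farthest pigs. IL15 and CXCL12 had r = 0.515 (adjusted p = 0.108) and rho = 0.626, which passed with an adjusted p of 0.0279 by permutation, and r was 0.610 without the 2 farthest pigs. TNF and IL18 had the most negative coefficient, at r = -0.487 (permutation, adjusted p = 0.109), and r was -0.194 without the 2 farthest pigs, so this relation rested on them.

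CCL5 and CXCL10 each followed the T cell markers. Of 120 relations between the 10 members and 12 marker scores, 7 passed an adjusted p of 0.05 for Pearson's r by permutation. CXCL10 against the T cell score (8 markers) gave r = 0.795 (adjusted p = 0.0012) and rho = 0.774 (adjusted p = 0.0012), with 0.857 within TN, 0.792 within HS and 0.756 without the 2 farthest pigs. CCL5 against the same score gave r = 0.680 (adjusted p = 0.0056) and rho = 0.636 (adjusted p = 0.0129), with 0.533 within TN, 0.755 within HS and 0.644 without the 2 farthest. After subtraction of the 6 group means, the coefficients were 0.802 for CXCL10 and 0.671 for CCL5, close to those over all pigs.

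**Figure D4:**
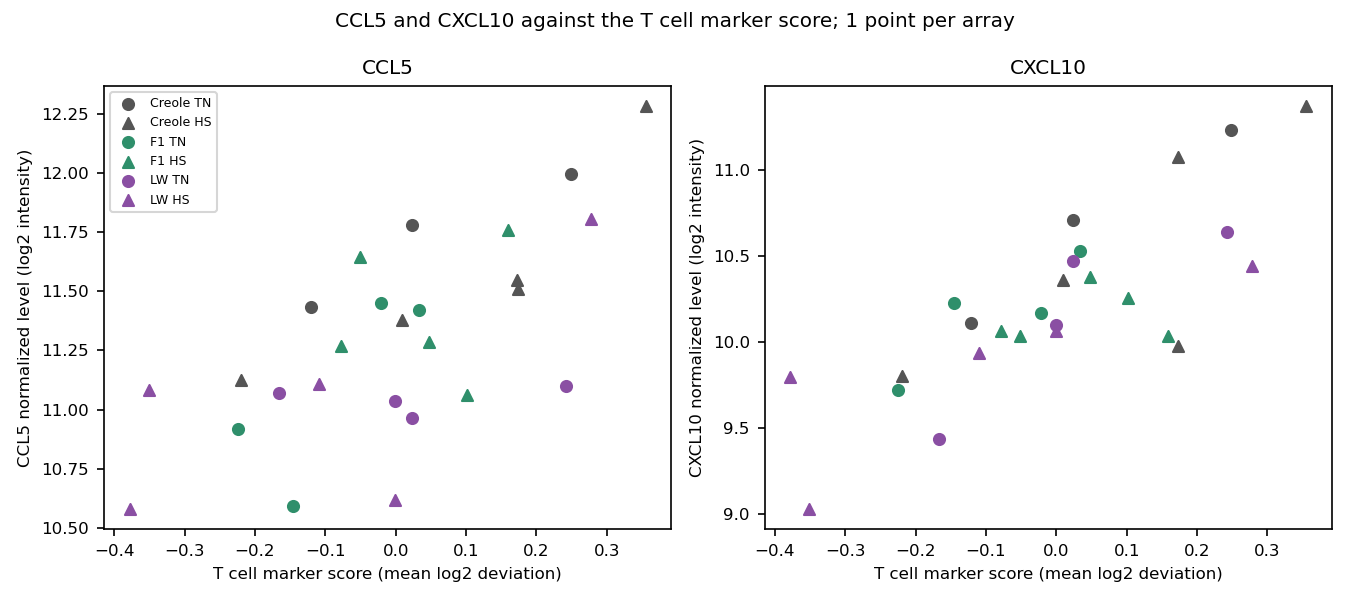
Normalized level (log2 intensity) of CCL5 (left) and CXCL10 (right) against the T cell marker score (mean log2 deviation of 8 markers), with 1 point per array, grey for Creole, green for F1 and purple for LW, circles for TN and triangles for HS. Both levels rose with the score (r = 0.680 and r = 0.795), within each temperature as well.

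IL15 and CXCL12 were lower where adipocyte markers were higher. IL15 against the adipocyte score (8 markers) gave r = -0.651 (permutation, adjusted p = 0.0093) and rho = -0.838 (adjusted p = 0.0012). It was -0.846 within TN and -0.487 within HS, -0.857 within F1, and only -0.163 within Creole and -0.140 within LW, and it was -0.738 without the 2 farthest pigs. IL15 also followed the endothelial score (6 markers), with r = 0.593 (adjusted p = 0.0321), rho = 0.705 (adjusted p = 0.0036) and 0.590 without the 2 farthest. CXCL12 against the adipocyte score gave r = -0.581 (adjusted p = 0.0300) and rho = -0.662 (adjusted p = 0.0036), but 0.198 within LW and -0.467 without the 2 farthest. CXCL12 against the mast cell score, which had only 2 measured markers, gave r = 0.701 (adjusted p = 0.0054) and rho = 0.753 (adjusted p = 0.0012), 0.624 without the 2 farthest and -0.175 within LW. Both of those markers, KIT (higher in LW) and HDC (lower in LW), differed between the parental breeds. IL18 against the skeletal muscle score gave r = 0.599 (adjusted p = 0.0300), but rho was 0.413 (adjusted p = 0.220) and r was 0.324 without the 2 farthest pigs, so this relation rested on those pigs. After subtraction of the 6 group means the coefficients were smaller, -0.501 for IL15 and -0.392 for CXCL12 against the adipocyte score, 0.455 for IL15 against the endothelial score and 0.549 for CXCL12 against the mast cell score. No member passed against the macrophage or neutrophil scores.

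**Figure D5:**
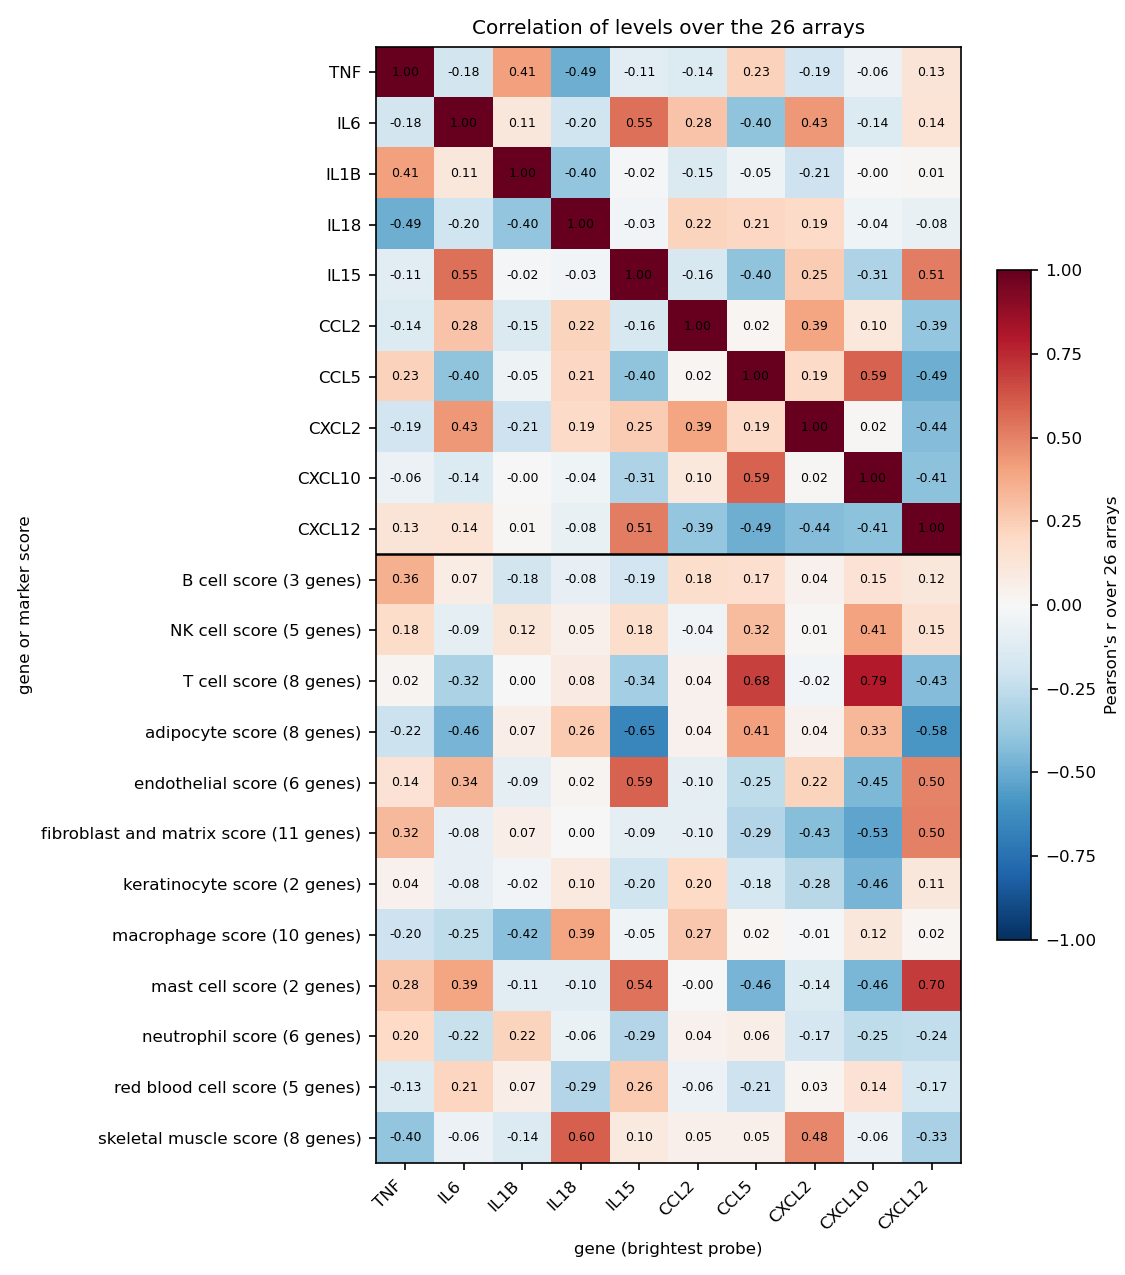
Pearson's r over the 26 arrays between the 10 genes (upper block) and between each gene and 12 cell marker scores (lower block), on a colour scale from -1 to 1. The largest coefficients among the genes were 0.59 (CCL5 and CXCL10) and 0.55 (IL6 and IL15), and the largest against a score was 0.79 (CXCL10 and T cell).

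Each member was last set against the 10133 other named genes to list the 3 whose levels over the 26 arrays were most like its own, as a description with no test. CXCL10 was closest to CXCL9, another interferon-induced ligand of the same receptor (r = 0.820), then to CST7, a cystatin of cytotoxic lymphocytes (0.774), and to CD3G, a subunit of the T cell receptor complex (0.766). CCL5 was closest to CST7 as well (0.795), then to RASAL3 (0.784) and to RAC2, a GTPase of blood cells (0.776). CXCL2 was closest to RGS1 (0.822), DUSP1 (0.797) and CYR61 (0.745), of which DUSP1 and CYR61 are immediate early genes. IL6 was closest to ARL2BP (0.822), the transcription factor KLF4 (0.820) and FBXW2 (0.783), and IL15 to STX12 (0.827), DNAJB9, a chaperone of the endoplasmic reticulum (0.794), and TMEM42 (0.790). CXCL12 was closest to the channel TRPC1 (0.874), the apolipoprotein APOD (0.858) and ARF5 (0.849). TNF was closest to NLRC3 (0.909), PPM1G (0.894) and SLC45A1 (0.887). Its brightest probe followed the other retained TNF probes less closely (0.409 and 0.386). IL18 was closest to XIRP2 (0.694), EGF (0.682) and TTN (0.661), of which XIRP2 and TTN are genes of striated muscle. IL1B, on the probe shared with IL1B2, was closest to PDZD4 (0.714), DLX6 (0.707) and BRD1 (0.705), and CCL2 had the weakest neighbours, SLC30A1 (0.637), AGAP3 (0.625) and ABRAXAS2 (0.610).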

How the data were processed

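Total RNA of backfat was labelled with Cy3 and hybridised to 1 Agilent porcine array per pig (26 arrays on 5 slides). The scanner files deposited by the authors were made with Agilent Feature Extraction 10.10.1.1 per the labels. Their median, mean, background and processed intensity columns are not scaled between arrays, and their flags for background, saturation and uniformity are scores of 0 or 1. For 44104 probes the authors also deposited a value table on the log2 scale, made from median intensities after quantile normalization. It differed from the values computed here by a median of 0.0079 and served as an alternative.

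Median intensities were quantile-normalized, non-uniform spots were set to missing, and log2 values were tested with limma 3.58.1 in R 4.3.3 (lmFit, eBayes with an intensity trend) on the 44703 probes that 8 or more arrays showed well above background. Breed or temperature was the other term of the model, and changes within breeds, the interaction and pairs of groups came from a model of the 6 groups. Benjamini-Hochberg adjustment ran over all tested probes (threshold 0.05). Pen, slaughter day, father and mother, random effects in the study's model, are not in the labels and were left out. Probes were named from the symbols and accessions of the files through a table of pig genes (Sscrofa11.1), and no genome sequence was used. All 10 members are named, each by its probe with the highest mean level, and genes of the other lists only where past the threshold. The members and lists were chosen with earlier results of these data known. The number of arrays limits the precision. Only the fit of HS minus TN was tested on simulated arrays, with independent noise per probe and no slide, pen or litter effects. Alternatives were another normalization (processed intensity at the 75th percentile), normexp with an offset of 50, other filters, the slide as a fixed or random block, array weights, no intensity trend, the mean of all probes of a gene, the authors' table, the red blood cell score as a covariate, models without the other term, and each array left out. After the data were seen, changes within breeds were also computed as differences of means with each array left out.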

Additional observations from a re-analysis of the deposited data

Results flagged for a closer look

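In 50 sets of 4 or 5 pigs (10 genes in 5 groups), 2 sets held a pig far from the rest by Dixon's test, which chance gives in about 1 of 20 sets. CXCL12 in Creole HS replicate 5 was at 14.38, above the next pig of its group at 13.39. IL18 in LW TN replicate 4 was at 7.12, below the next pig at 7.72.

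In 3 cases every HS pig of one breed lay on one side of the TN mean of its breed and every HS pig of another breed on the opposite side. The change of CXCL2 was -0.74 in Creole and 0.54 in LW, and -0.49 in F1 and 0.54 in LW. The change of CXCL12 was -0.25 in F1 and 0.22 in LW. In each case the one-sided pattern ended when 1 of certain TN pigs was left out. For CXCL2 in LW this was replicate 4, without which the difference of means was 0.24 and 3 of 5 HS pigs were above the TN mean. For CXCL2 in Creole it was replicate 2 (-0.61), and in F1 replicate 1 (-0.33). For CXCL12 it was replicate 2 (-0.15) or 4 (-0.11) in F1 and replicate 2 (0.18) in LW. These pairs of breeds were not tested against each other, and the F test of the interaction over the 3 breeds had an adjusted p of 0.897 for both genes.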

How the results depend on the processing

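No paired analysis was possible because the replicate numbers only name the pigs. By the brightest probe, the count of genes past the threshold for LW minus Creole was 1 in the reported model and 3 with the slide as a fixed block or with the mean of all probes (CCL5, CXCL10 and IL15), and 3 with array weights or the red blood cell score (CCL5, CXCL10 and CXCL12), and it went from 0 to 3 when 1 array was left out. For any difference between breeds it was 0, and 1 (CCL5) with the processed intensity at the 75th percentile, the slide as a fixed or random block, array weights or the mean of all probes, and from 0 to 2 with 1 array left out. For HS minus TN it was 0 in all settings but those that left out 1 array, where it went from 0 to 1, and within F1 it was 0, and 1 (IL15) with array weights, and from 0 to 1 with 1 array left out. The counts for F1 against its parents, within Creole, within LW and for the interaction were 0 throughout.

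Small values that were not past the threshold changed sign. For HS minus TN, CXCL12 was -0.0634 at the 75th percentile, -0.099 with the red blood cell score and -0.0698 by the mean of all probes, which also gave IL1B -0.1572 and CCL5 -0.0063. For LW minus Creole, IL1B was -0.0074 with array weights, -0.0091 with the red blood cell score and -0.0402 by the mean of all probes. For F1 against its parents, IL1B was 0.0236 at the 75th percentile, 0.0111 with normexp and 0.077 by the mean of all probes, and TNF was -0.091 with the slide as a fixed block and -0.0845 by the mean of all probes. With 1 array left out, signs turned for HS minus TN in CCL2 (-0.0274 to 0.1625), CCL5 (-0.01 to 0.1058) and CXCL12 (-0.0132 to 0.1138), for LW minus Creole in CCL2 (-0.1405 to 0.0863) and IL1B (-0.03 to 0.0641), and for F1 against its parents in TNF (-0.0296 to 0.0664), IL1B (-0.0539 to 0.0375), CCL5 (-0.1291 to 0.0153) and CXCL12 (-0.0596 to 0.0828). With the 75th percentile the values of IL6 probe A_72_P680394 grew to -0.7607 for temperature and 0.8478 for breed. It lost its call for temperature with the red blood cell score (adjusted p = 0.102) and for breed without the temperature term (0.46, adjusted p = 0.0714). The cause of these shifts was not tested.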
